A study of Mus musculus with 6 samples.

Results

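Of the 23284 genes listed for osteoblasts (OBs) from ectopic bone, 9 interferon response genes are described here: *Ifit1*, *Ifit3*, *Isg15*, *Irf1*, *Irf7*, *Stat2*, *Usp18*, *Oasl2* and *Bst2*. They were taken by gene symbol, 1 row per gene in each of the 6 samples, and all 9 were found. *Col2.3*-ECFP mice were given BMP-2 implants, and OBs were sorted from the bone that formed around them, in 3 samples of day 10 and 3 samples of day 14. All mice carried the same transgene, in which cyan fluorescent protein is made under a fragment of the type I collagen promoter, which is active in OBs, and all received the same implant. They were male and 12 to 16 weeks old, and an implant held 2.5 μg of BMP-2. Sorting gated out CD45+ and dead cells before ECFP+ OBs were collected. Tissue received 1 digestion with 0.25% trypsin in all samples, followed by 1 round of 0.2% collagenase II for the earlier samples and 2 rounds for the later ones, and an effect of the added round cannot be told apart from one of the day. The sample titles place the 3 later samples on day 14, whereas their descriptions give day 14, 15 and 16 for replicates 1, 2 and 3. The titles were followed, and whether a biological replicate was 1 animal or a pool is not given in the sources used here.

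Interferons are secreted proteins that warn cells of infection or damage. Type I interferons bind the receptor chains IFNAR1 and IFNAR2, which act through JAK kinases to bring STAT2 and IRF9 into a complex that binds the interferon-stimulated response element (ISRE) of target genes. Type II interferon, IFN-γ, binds IFNGR1 and IFNGR2 and acts through the gamma-activated site (GAS). In bone, interferons are known for restraining osteoclast formation. Of the 9 genes, *Stat2*, *Irf7* and *Irf1* encode transcription factors of the response, *Ifit1*, *Ifit3*, *Oasl2* and *Bst2* encode antiviral effectors or their relatives, and *Isg15* and *Usp18* encode a ubiquitin-like modifier and the protease that removes it.

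Each value is in FPKM, the fragments on a gene scaled to its length and to the mapped reads of the sample, so that levels can be compared between genes. Depth was estimated from the steps between low values at 4556921 to 7796284 reads per sample, so that 3 reads on a kilobase correspond to 0.385 to 0.658 FPKM. All 9 genes were above 0 in every sample. *Ifit1* rested on an estimated 58 to 268 reads, *Ifit3* on 37 to 135 and *Isg15* on 20 to 121. Day 14 replicate 2 stood apart from the other day 14 samples in its cell-type markers, with summed chondrocyte markers of 2488 FPKM against 235 and 174 FPKM. The day 10 samples, at 1626, 1399 and 787 FPKM, lay above day 14 replicates 1 and 3 and below replicate 2. The comparisons of the 9 genes and the counts of the gene lists are therefore given with and without day 14 replicate 2. Leaving it out keeps the day 14 samples that were lowest in these markers. OB markers summed to between 39510 and 104234 FPKM per sample, a sum carried mostly by *Col1a1*, *Col1a2*, *Sparc* and *Ibsp*. Other OB markers were low in some day 14 samples. *Dlx5*, a transcription factor, was at 0.980, 9.84 and 1.01 FPKM on day 14, against 9.88, 8.19 and 7.56 FPKM on day 10.

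Promoter sequence was read for 8 of the 9 genes from RefSeq (GRCm38.p6, mm10), over the 250 bases before each annotated start. The 6 genes that hold a match to the ISRE core GAAANNGAAA or to the GAS letters TTCNNNGAA on either strand are printed, because these are the letters that the complexes named above are known to recognise. Each is printed 5′ to 3′ on the gene's own strand with 20 bases on each side, and capitals mark the matched letters, which appear as the reverse complement (TTTC on both flanks) where the ISRE core lies on the other strand.
*Ifit1*, chr19:34640765-34640833, plus strand: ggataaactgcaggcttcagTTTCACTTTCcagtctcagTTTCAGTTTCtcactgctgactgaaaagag
*Ifit3*, chr19:34583353-34583436, plus strand: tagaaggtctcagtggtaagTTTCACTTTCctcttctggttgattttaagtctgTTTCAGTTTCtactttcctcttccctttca
*Isg15*, chr4:156200855-156200916, minus strand: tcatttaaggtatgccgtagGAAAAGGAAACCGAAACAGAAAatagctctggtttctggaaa
*Stat2*, chr10:128270256-128270305, plus strand: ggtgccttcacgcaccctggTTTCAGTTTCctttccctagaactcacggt
*Bst2*, chr8:71537567-71537628, minus strand: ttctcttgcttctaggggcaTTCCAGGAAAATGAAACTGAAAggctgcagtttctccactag
*Irf1*, chr11:53769904-53769952, plus strand: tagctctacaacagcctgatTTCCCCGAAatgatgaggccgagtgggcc

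These 8 genes had 9 promoter entries, of which 5 held the ISRE core, against 2.98% of the 32851 mouse promoters of the same length. *Ifit1*, *Ifit3* and *Bst2* each held 2 matches, *Isg15* held 3 that overlap one another, and *Stat2* held 1. The matches lay 76 to 104 bases before the start in *Ifit1*, 113 to 156 in *Ifit3*, 57 to 78 in *Isg15*, 115 to 130 in *Bst2* and 213 to 222 in *Stat2*. The GAS letters were present in *Irf1*, 82 to 90 bases before the more upstream of its 2 RefSeq starts and not before the other, and in *Bst2*, where they overlap the ISRE core, against 7.02% of all promoters. Neither set of letters was found in this window of *Oasl2* or *Irf7*, and *Usp18* had no entry. A match describes the letters only and is not evidence of binding.

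All 9 are annotated as protein-coding genes in GENCODE vM21 (mm10). *Ifit1* and *Ifit3* are close to each other on the plus strand at chr19:34640871-34650009 and chr19:34583531-34588731. The transcription factor genes lie at chr10:128270559-128292849 (*Stat2*, plus strand), chr7:141262706-141266481 (*Irf7*, minus strand) and chr11:53770014-53778374 (*Irf1*, plus strand). *Isg15* is on the minus strand at chr4:156199424-156200818 and *Usp18* on the plus strand at chr6:121245906-121270917. *Oasl2* is on the plus strand at chr5:114896936-114912234 and *Bst2* on the minus strand at chr8:71534255-71537456.

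The 9 genes covered a wide range of levels. *Irf1* and *Bst2* were the most abundant on both days, with day 10 means of 49.8 ± 17.9 and 48.8 ± 14.3 FPKM (SD, n = 3), which placed them at 1153 and 1171 in the order of all 23284 genes. *Isg15* and *Irf7* followed, and *Stat2* was the least abundant on both days, at 3.34 ± 0.646 FPKM on day 10 and 5.999 ± 2.86 FPKM on day 14. Between neighbours in this order, the day 10 samples separated only *Bst2* from *Isg15* and *Usp18* from *Stat2*, and the day 14 samples only *Bst2* from *Isg15*. These are ranges over samples. Within samples, *Irf7* exceeded *Ifit1* in 3 of 3 on each day, although their ranges overlapped.

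**Figure D1:**
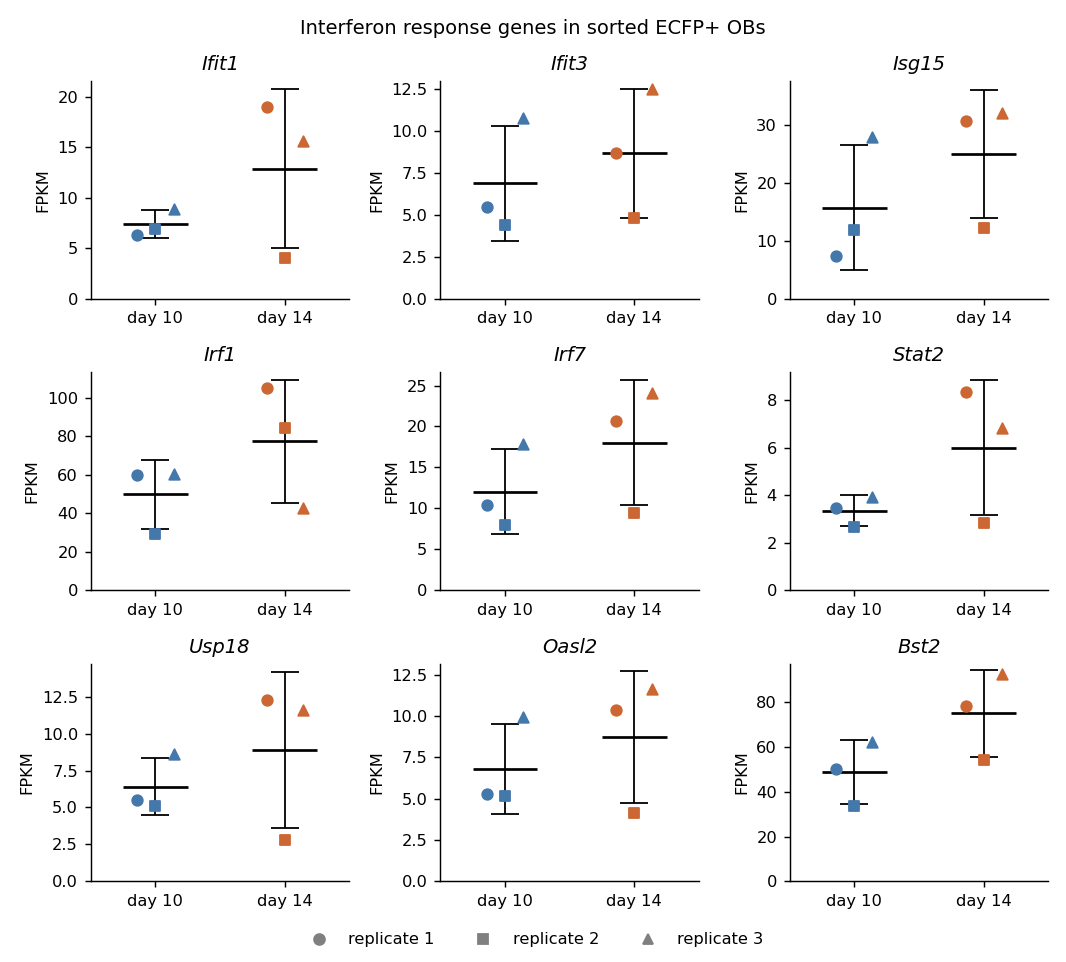
FPKM of each of the 9 interferon response genes in the 6 samples, with a panel per gene, points for single samples numbered by replicate and a bar at the mean of each day. Day 10 replicate 3 is the highest day 10 point in all 9 panels, and day 14 replicate 2 is the lowest day 14 point in every panel but that of *Irf1*.

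Among the transcription factors, *Stat2* encodes the subunit that is particular to type I and type III signaling. Its day 10 samples measured 3.46, 2.65 and 3.92 FPKM and its day 14 samples 8.36, 2.82 and 6.83 FPKM, for replicates 1, 2 and 3 in that order, as in all lists of values that follow. Day 14 replicates 1 and 3 lay above every day 10 sample and replicate 2 lay within the day 10 range. *Irf7*, the factor that amplifies type I interferon production, measured 10.4, 7.90 and 17.8 FPKM on day 10 and 20.7, 9.42 and 24.0 FPKM on day 14, with the same arrangement of samples. *Irf1*, a factor induced through GAS by IFN-γ and many other signals, measured 60.0, 29.1 and 60.1 FPKM on day 10 and 105, 84.3 and 42.5 FPKM on day 14. Here the low day 14 sample was replicate 3, and replicate 2 lay above all day 10 samples, unlike in the other 8 genes.

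*Ifit1*, whose protein binds viral RNA with an unmethylated cap, measured 6.30, 6.95 and 8.92 FPKM on day 10 and 18.98, 4.02 and 15.6 FPKM on day 14. Replicates 1 and 3 of day 14 were above the day 10 range and replicate 2 was below it, so that the day 14 SD of 7.85 FPKM exceeded that of day 10, 1.37 FPKM. *Ifit3*, which encodes a partner of IFIT1, measured 5.47, 4.36 and 10.8 FPKM on day 10 and 8.67, 4.80 and 12.5 FPKM on day 14, and the days overlapped in more than 1 sample. Of its annotated 75-base stretches, 41.1% also occur in another gene, chiefly the near-identical *Ifit3b*, so reads of these genes may have been divided between them. *Ifit3b*, listed under an older name, was at 0.904, 1.31 and 1.85 FPKM on day 10 and 2.54, 1.12 and 2.51 FPKM on day 14, again with replicate 2 lowest on day 14. For *Ifit1* the share was 5.19%, and for the other members 0.113% or less.

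*Oasl2*, a relative of the oligoadenylate synthetases that sense double-stranded RNA, measured 5.30, 5.15 and 9.95 FPKM on day 10 and 10.4, 4.14 and 11.6 FPKM on day 14. Its day 14 replicate 2 was the lowest of all 6 samples, and its other day 14 samples were the highest. *Bst2*, which encodes tetherin, a membrane protein that holds budding virus particles at the cell surface, measured 50.1, 33.9 and 62.3 FPKM on day 10 and 78.4, 54.4 and 92.5 FPKM on day 14. The days overlapped through a single sample, since day 14 replicate 2 lay between day 10 replicates 1 and 3.

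*Isg15*, the modifier that is joined to other proteins during the response, measured 7.45, 11.9 and 27.9 FPKM on day 10 and 30.7, 12.3 and 32.0 FPKM on day 14. Its day 10 samples were the most spread of the 9 genes in relation to their mean, with 15.8 ± 10.7 FPKM (SD, n = 3). *Usp18*, whose product removes ISG15 and also damps the type I receptor, measured 5.48, 5.11 and 8.62 FPKM on day 10 and 12.3, 2.80 and 11.6 FPKM on day 14. Its day 14 replicate 2 was the lowest of the 6 samples, as for *Ifit1* and *Oasl2*. The exons of *Usp18*, *Irf1* and *Irf7* overlap those of another annotated gene (*Gm44148*, *Gm17334* and *Phrf1*), and since the library kit does not mark strand, reads in the shared stretches cannot be told apart.

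Day 10 was then set against day 14 to ask whether these genes changed as the ectopic bone matured. The mean of log2(FPKM + 0.1) was higher on day 14 for all 9, and for 9085 of all 19526 genes tested. The median log2 fold change of the 9 was 0.56, beside −0.04 over all genes tested. None passed an adjusted p under 0.05 in limma (Benjamini-Hochberg over all genes tested, on log2(FPKM + 0.1)), a call that 0.0154% of the genes tested received. *Bst2* alone had an unadjusted p under 0.05 (1 of 9), where 5.60% of all genes tested were higher and 4.40% lower on day 14 with such a p. No member changed over 2-fold, against 5.25% of the genes tested that were higher by that much. In none of the 9 did the 3 day 14 samples all exceed the 3 day 10 samples, against 7.59% of the genes tested.

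*Bst2* had a log2 fold change of 0.63 (SE 0.269, 95% interval 0.017 to 1.25), with an unadjusted p of 0.0452 and an adjusted p of 0.487 from limma. *Isg15* had the largest log2 fold change of the 9, at 0.76 (SE 0.511), with a wide 95% interval from −0.41 to 1.93 and an adjusted p of 0.692 from limma. *Usp18* had the smallest, at 0.24 (SE 0.528, adjusted p = 0.933 from limma). The remaining 6 lay between 0.29 for *Oasl2* and 0.71 for *Stat2*, and none of them had an unadjusted p under 0.05 in limma. In two-sided exact permutation tests, whose smallest possible p is 0.1 for 3 samples against 3, the 9 genes gave p-values from 0.2 to 0.8.

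Without day 14 replicate 2, the median log2 fold change of the 9 genes was 0.93, beside 0.02 over the 19674 genes then tested. This sample was the lowest day 14 sample in 8 of the 9, so leaving it out raises their day 14 means by construction. An unadjusted p under 0.05 was reached by 7 of 9, all but *Irf1* and *Ifit3*, where 7.01% of the genes tested were higher with such a p. In 7 of 9, again all but *Irf1* and *Ifit3*, both remaining day 14 samples lay above all day 10 samples, against 15.3% of the genes tested. When any other single sample was left out, both counts were 0 to 2. None of the 9 passed an adjusted p under 0.05 in limma without day 14 replicate 2, a call that 0.386% of the genes received. The nearest was *Ifit1*, with a log2 fold change of 1.22, an unadjusted p of 0.000651 and an adjusted p of 0.0689 from limma. *Stat2* followed, with a log2 fold change of 1.17 and an adjusted p of 0.127. *Irf1* had a lower log2 fold change than with all samples, 0.50 against 0.61.

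**Figure D2:**
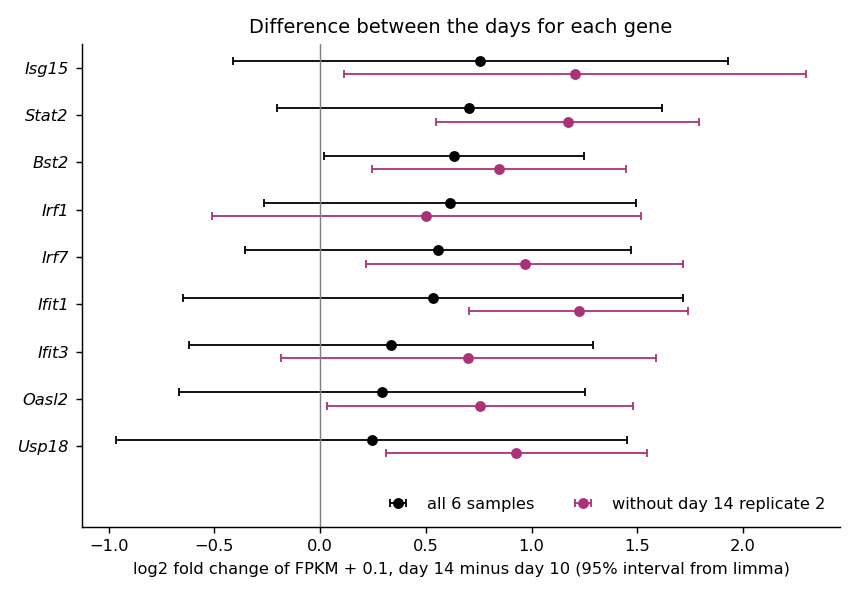
Log2 fold change of FPKM + 0.1 between the days (day 14 minus day 10) for each of the 9 genes, with points for the estimate and bars for the 95% interval from limma, in black for all 6 samples and in purple without day 14 replicate 2. With all samples only the interval of *Bst2* lies above 0, and without day 14 replicate 2 all intervals do except those of *Irf1* and *Ifit3*. Day 14 replicate 2 was the lowest day 14 sample in 8 of the 9 genes.

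The members shared an order among the samples, although the 9 genes were chosen with earlier results of these data known. Day 10 replicate 3 was the highest day 10 sample in 9 of 9 genes, and the lowest was replicate 2 in 7 genes and replicate 1 in the other two. Day 14 replicate 2 was the lowest day 14 sample in 8 of 9, and it lay below all day 10 samples for *Ifit1*, *Usp18* and *Oasl2* (3 of 9). The share of all genes with these orders was not computed, so they are not read as particular to the members. The mean of day 14 replicates 1 and 3 was 4.30 times the level of replicate 2 for *Ifit1* and 4.26 times for *Usp18*. For *Stat2*, *Oasl2*, *Isg15*, *Irf7* and *Ifit3* this ratio was between 2.2 and 2.69, for *Bst2* it was 1.57, and for *Irf1* it was 0.876. The genes most variable within day 14 were thus *Ifit1* and *Usp18*, and *Irf1* stood outside the shared order.

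To summarise this order, log2(FPKM + 0.1) of each gene was centred on its own mean and averaged over the 9 genes. This profile was −0.41, −0.64 and 0.27 on day 10 and 0.71, −0.55 and 0.62 on day 14. Among 11153 other genes with a mean of at least 1 FPKM, 54 had a Pearson r of at least 0.95 with it over the 6 samples, given as a description since 6 samples that share libraries and days fix few degrees of freedom. The 5 most alike were *Ccl7* (r = 0.996), *Nfia* (r = 0.992), *Nfkbiz* (r = 0.983), *Gm8773* (r = 0.983) and *Col23a1* (r = 0.983). *Ccl7*, which encodes a chemokine that attracts monocytes, measured 443, 344 and 858 FPKM on day 10 and 1492, 428 and 1263 FPKM on day 14, in the same rank order as the profile.

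Other genes of the pathway were then read from lists ordered by role. The interferons themselves were near the limit of detection. Each of the 21 ligand genes was at 0 in at least 1 sample, none exceeded 1.68 FPKM in any sample, and of the 16 with enough signal to test, 0 were higher and 2 lower on day 14 with an unadjusted p under 0.05, against 5.60% and 4.40% of all genes tested (*Ifna2* and *Ifna4*, named for this count after their values were seen). *Ifnb1*, the main interferon of non-immune cells, was at 1.09, 0.323 and 0.913 FPKM on day 10 and 1.17, 0 and 0.755 FPKM on day 14. *Ifng*, which encodes IFN-γ, was at 0.204, 0.364 and 0 FPKM on day 10 and 0.219, 0 and 0 FPKM on day 14. All *Ifng* values lay under the 0.385 to 0.658 FPKM that 3 reads on a kilobase give.

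Receptors and signal transducers were above the 3-read level in every sample except *Ifnlr1*, a type III receptor chain, which lay between 0.0372 and 0.747 FPKM. Of 12 tested, 6 were higher and 0 lower on day 14 with an unadjusted p under 0.05, against 5.60% and 4.40% of all genes tested, 0 had an adjusted p under 0.05 in limma, and the median log2 fold change was 0.44. The 6 became 1 with quantile normalization, without the variance trend, without day 10 replicate 1 or without day 14 replicate 3, 2 without day 10 replicate 3 and 3 without day 14 replicate 1. *Ifngr2*, the signaling chain of the IFN-γ receptor, measured 15.1, 18.8 and 16.7 FPKM on day 10 and 25.7, 26.2 and 38.8 FPKM on day 14, without overlap between the days (log2 fold change 0.82, SE 0.198, unadjusted p = 0.00304, adjusted p = 0.305 in limma). *Ifnar1* and *Ifnar2*, the chains that bind type I interferon, had log2 fold changes of 0.45 and 0.43, with unadjusted p-values of 0.0463 and 0.0345. *Jak1*, the kinase common to all interferon receptors, and *Stat3* stood at 0.49 and 0.46, and *Ifngr1* at 0.32 did not pass (unadjusted p = 0.0917 in limma). In *Irf9*, which encodes the DNA-binding partner of STAT2, day 14 replicates 1 and 3 exceeded all day 10 samples and replicate 2 did not, as in *Stat2*. Its log2 fold change was 0.36 (unadjusted p = 0.308 in limma), and day 14 replicate 2, at 5.05 FPKM, was the lowest of the 6 samples.

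Sensors of foreign nucleic acid and their adaptors gave 3 higher and 0 lower of 17 tested at the same unadjusted threshold, against 5.60% of all genes tested that were higher, with a median log2 fold change of 0.23. The 3 became 0 without the variance trend, without day 10 replicate 1, without day 14 replicate 1 or without day 14 replicate 3, and 1 with quantile normalization or without day 10 replicate 2. *Zbp1*, a sensor of Z-form nucleic acid, had the largest log2 fold change among these, 1.48 (unadjusted p = 0.022 in limma), from 3.24, 6.48 and 13.3 FPKM to 27.3, 9.96 and 23.4 FPKM. *Tmem173*, which encodes the adaptor STING, and *Unc93b1*, a chaperone of Toll-like receptors, stood at 0.66 and 0.56, and *Irf5* at 0.95 did not pass (unadjusted p = 0.0532 in limma).

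Effectors of the type I response, apart from the members, numbered 52, of which 10 were higher and 0 lower with an unadjusted p under 0.05, against 5.60% and 4.40% of all genes tested, and the median log2 fold change was 0.41. The 10 became 6 without day 10 replicate 1, 7 without day 14 replicate 3 and 24 without day 14 replicate 2. All day 14 samples exceeded all day 10 samples in 10 of the 52, against 7.59% of all genes tested. *Samhd1*, which depletes the nucleotides that viruses need, had the smallest p, with 6.29, 4.79 and 6.70 FPKM on day 10 and 14.0, 12.04 and 14.1 FPKM on day 14 (log2 fold change 1.17, SE 0.194, unadjusted p = 0.000257, adjusted p = 0.228 in limma). *Isg20*, *Trim21* and *Lgals3bp* had log2 fold changes of 0.71, 1.64 and 0.84. In 45 of the 52, day 14 replicates 1 and 3 both exceeded replicate 2, as in 8 of the 9 members. It also held in 27 of 28 IFN-γ targets, 11 of 18 sensors and adaptors, and 5 of 12 receptors and signal transducers. The share over all genes was not computed.

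Genes listed as targets of IFN-γ had the largest differences of the pathway lists, with a median log2 fold change of 1.02. Which interferon or other signal set their levels was not tested. Of 27 tested, 12 were higher and 0 lower on day 14 with an unadjusted p under 0.05, against 5.60% and 4.40% of all genes tested, and 0 had an adjusted p under 0.05 in limma. The 12 became 6 without the variance trend, without day 10 replicate 1 or without day 14 replicate 3, 5 without day 14 replicate 1, 8 without day 10 replicate 2, 16 without day 10 replicate 3 and 23 without day 14 replicate 2. All day 14 samples exceeded all day 10 samples in 6 of the 27, against 7.59% of all genes tested. *Cxcl9*, a chemokine for T cells, measured 2.42, 1.82 and 4.19 FPKM on day 10 and 37.3, 8.50 and 21.7 FPKM on day 14 (log2 fold change 2.80, SE 0.517, unadjusted p = 0.000544, adjusted p = 0.272 in limma). *Gbp2*, a GTPase that attacks intracellular pathogens, measured 11.3, 11.7 and 17.3 FPKM on day 10 and 59.7, 20.7 and 48.5 FPKM on day 14 (log2 fold change 1.56, unadjusted p = 0.00279). *Icam1*, an adhesion molecule, and *Psmb10*, a subunit of the immunoproteasome, stood at 1.49 and 0.83.

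The list drawn up for genes that damp the response gave 1 higher and 0 lower of 13 tested, a share near the 5.60% of all genes tested, with a median log2 fold change of 0.05. It also held *Isg20l2* and *Nlrc5*, and the damping role of each listed gene was not tested. The 1 became 0 with quantile normalization, without the variance trend, without day 10 replicate 1 or without day 14 replicate 1, and 2 without day 14 replicate 3. The gene that passed was *Ptpn2*, a phosphatase that acts on JAK1, with a log2 fold change of 0.50 (unadjusted p = 0.0179 in limma). *Socs1*, the main feedback inhibitor of the pathway, was at 0.46 (unadjusted p = 0.148 in limma), and *Trim24* was at −0.50.

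Without day 14 replicate 2, a setting added for these lists after the data were seen, the count with a higher level and an unadjusted p under 0.05 was 24 of 52 type I effectors and 23 of 28 IFN-γ targets, against 7.01% of all genes tested. For the receptors it was 6 of 12, for the sensors 5 of 17, with 1 lower, and for the damping genes 1 of 13. Among the IFN-γ targets, 5 then had an adjusted p under 0.05 in limma, namely *Cxcl9*, *Gbp2*, *Iigp1*, *Ifi47* and *Cd274*. Of these, *Iigp1*, *Ifi47* and *Cd274* were named after their values were seen. No gene of the other pathway lists had such an adjusted p. Day 14 replicate 2 was the lowest day 14 sample in 27 of the 28 IFN-γ targets and 45 of the 52 type I effectors. Leaving it out therefore raises their day 14 means by construction. With all 6 samples, 0 of the IFN-γ targets had an adjusted p under 0.05 in limma.

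**Figure D3:**
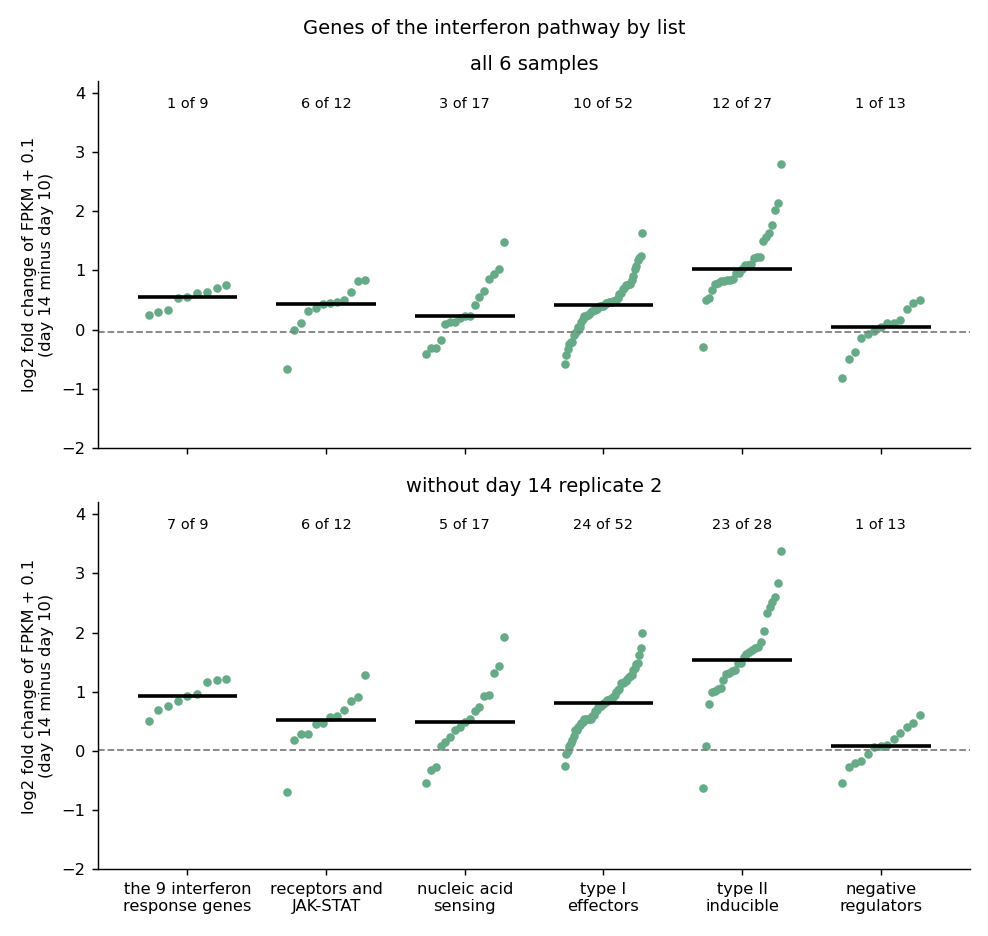
Log2 fold change of FPKM + 0.1 (day 14 minus day 10) for each tested gene of the 9 interferon response genes and 5 pathway lists, sorted within each list, with a bar at the list's median and a dashed line at the median of all genes tested. The numbers above give genes higher on day 14 with an unadjusted p under 0.05, of those tested, which for type II inducible genes is 12 of 27 with all 6 samples and 23 of 28 without day 14 replicate 2 (5 when day 14 replicate 1 is left out, not plotted).

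Markers of other cell types moved between the same samples. The 15 myeloid markers summed to 40.2, 164 and 135 FPKM on day 10 and 279, 22.1 and 674 FPKM on day 14, and day 14 replicate 2 was the lowest day 14 sample in 15 of 15, with 4 of them at 0 there. That sample also had the fewest genes above 0 of the 6, with 16646 against 19698 and 17630 in day 14 replicates 1 and 3. Whether this lowered scarce markers there was not tested. The share of all genes that were lowest in that sample was not computed. Of the 15, 1 was higher and 0 lower on day 14 with an unadjusted p under 0.05 in limma, near the 5.60% and 4.40% of all genes tested. The 1 became 0 without day 10 replicate 1, day 10 replicate 3, day 14 replicate 1 or day 14 replicate 3. Without day 14 replicate 2, 10 were higher, against 7.01% of the genes tested. The most abundant was *Lyz2*, a lysozyme of macrophages, at 18.5, 71.9 and 83.3 FPKM and then 160, 6.35 and 454 FPKM. *Ptprc*, which encodes the CD45 used in the gate, was named after its values were seen and lay between 0.134 and 2.99 FPKM. T and NK cell markers summed to 3.05 to 4.01 FPKM on day 10 and to 8.94, 3.68 and 10.0 FPKM on day 14, and 8 of these 10 genes were at 0 in at least 1 sample. Of the 9 tested, 1 was higher with an unadjusted p under 0.05 in limma, against 5.60% of all genes tested. Without day 14 replicate 2, 4 were higher, against 7.01%.

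The 12 fibroblast and pericyte markers, all above 0 in every sample, summed to 729, 772 and 1379 FPKM on day 10 and 1747, 1103 and 1964 FPKM on day 14. Their mean log2 level, centred as for the 9 genes, was −0.41, −0.40 and 0.18 on day 10 and 0.34, −0.08 and 0.36 on day 14, so replicate 3 was the highest day 10 sample and replicate 2 the lowest day 14 sample, as in the profile of the 9 genes. Of the 12, 3 were higher and 1 lower with an unadjusted p under 0.05 in limma, against 5.60% and 4.40% of all genes tested. Without day 14 replicate 2, 6 were higher and 2 lower. Of all 19674 genes then tested, 7.01% were higher and 1178 were lower with such a p. The number higher was 7 without day 10 replicate 3. The 10 endothelial markers summed to 14.2 to 22.8 FPKM on day 10 and 23.9 to 31.3 FPKM on day 14. Of these 10, 2 were higher and 0 lower in either setting, beside the same shares over all genes tested.

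Within day 10 the interferon response genes and the myeloid markers were not ordered alike. From replicate 1 to replicate 2, 14 of 15 myeloid markers were higher, whereas 7 of the 9 interferon response genes were lower. The share of all genes that rose or fell between these replicates was not computed. The centred mean log2 level on day 10 was −0.41, −0.64 and 0.27 for the 9 genes and −1.15, 0.39 and −0.04 for the myeloid markers. Both were thus higher in replicate 3 than in replicate 1. On day 14 both were lowest in replicate 2, at −0.55 and −2.25. The 14 OB markers summed to 94737, 104234 and 54219 FPKM on day 10 and 46497, 77725 and 39510 FPKM on day 14. Of these, 0 were higher and 4 lower on day 14 with an unadjusted p under 0.05 in limma, against 5.60% and 4.40% of all genes tested. Without day 14 replicate 2, 9 were lower, against 1178 of the 19674 genes tested. Of these 9, 3 had an adjusted p under 0.05 in limma, a call that 0.386% of the genes tested received. For the 12 chondrocyte markers, 0 were higher and 3 lower, and 9 were lower without day 14 replicate 2. Of these 9, 6 had an adjusted p under 0.05 in limma. The same shares over all genes tested apply. The OB sum was thus higher in day 14 replicate 2 than in the other day 14 samples, the opposite of the interferon response genes. The part of other cell types in the differences of the 9 genes was not tested. In bulk samples such as these, fewer cells of a type and less RNA per cell cannot be told apart.

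**Figure D4:**
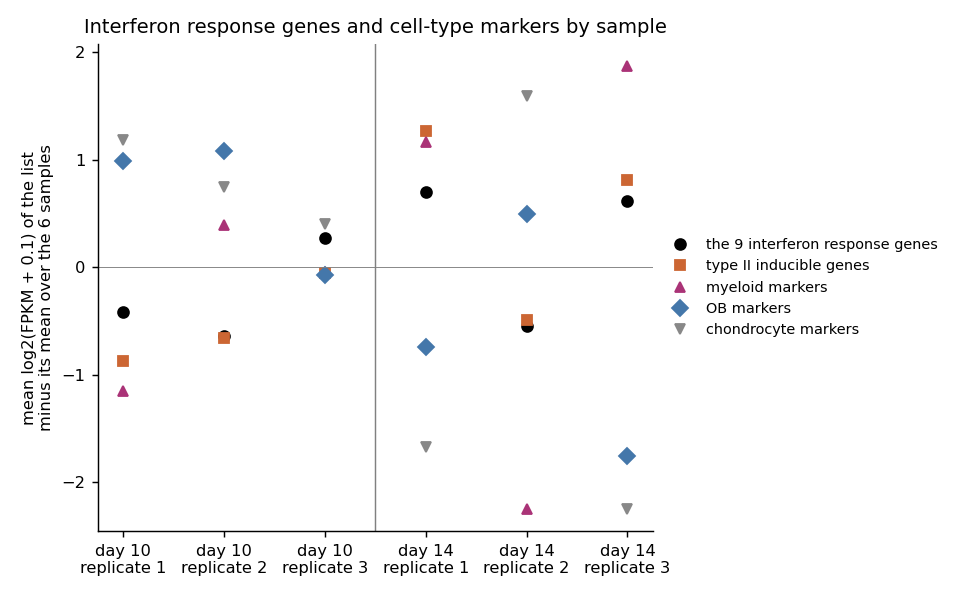
Mean log2(FPKM + 0.1) of 5 gene lists in each sample, minus the list's mean over the 6 samples, with a symbol per list and the days parted by a vertical line. The 9 interferon response genes stand at 0.71 and 0.62 in day 14 replicates 1 and 3 and at −0.55 in replicate 2, where the myeloid markers are at −2.25 and the OB and chondrocyte markers are above 0.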

How the data were processed

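Single-end reads of 75 bases were mapped by the authors to mm10 using TopHat2 2.0.13, Bowtie2 2.2.3 and SAMtools 0.1.19, and they deposited FPKM per gene and sample from Cufflinks 2.2.1 (versions from the submitters' processing notes). Neither the annotation nor the handling of shared reads is given in the sources used here. The 6 files list the same 23284 genes. In day 14 replicate 2, 25 symbols had become dates and were restored by position.

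Days were compared with limma 3.58.1 in R 4.3.3 (lmFit, eBayes with trend) on log2(FPKM + 0.1) over 19526 genes with a mean above 0.1 FPKM, with day as the only factor and Benjamini-Hochberg adjustment over all genes tested. A pseudocount understates changes of low genes. Single genes were also compared by exact permutation (SciPy 1.17.1). P-values measure the spread between these samples, since the sources do not say how many animals each came from. Depth and a fragment length of 220 bases were fitted over 2184 single-transcript genes, so that low values fell best on whole reads. At these settings 75.5% to 80.2% of the low values fell within 0.1 of a whole read. This share comes from the values fitted, so it is not an independent check. Symbols and overlaps came from GENCODE vM21 (mm10), which held 22803 of the symbols, and promoters from RefSeq.

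The 9 genes and all lists were chosen with earlier results of these data known. Besides the members, the text names the genes of each pathway list with an adjusted p under 0.05 or, failing that, up to 4 with the smallest p and a mean of at least 1 FPKM. It also names *Ifnb1*, *Ifng*, the receptor chains, *Irf9* and *Ifit3b*, the most abundant genes of the marker lists, and the 5 genes most like the members. Alternatives were other pseudocounts, filters, scalings and variance models, a replicate block, and leaving out each sample. The calculations were tested on simulated data. A gene that the rule also names is not reported here.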

Additional observations from a re-analysis of the deposited data

How the results depend on the processing

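Of 126 fold changes of the 9 genes under the alternatives, 124 were positive and 2 negative, and none reached an adjusted p under 0.05. The negative ones were both of *Usp18*, with a log2 fold change of −0.12 without day 14 replicate 1 and −0.08 without replicate 3. The median of the 9 was 0.56, and ranged from 0.52 to 0.56 under other settings and from 0.30 to 0.93 when a sample was left out. The number of the 9 with an unadjusted p under 0.05, 1 with all samples, was 0 with a mean above 1 FPKM, with upper quartile scaling, with quantile normalization and without the variance trend. It was 7 without day 14 replicate 2 and 0 to 2 when any other sample was left out. The number with fully separated days, 0 with all samples, was likewise 7 without that sample and 0 to 2 without any other. Over all genes, 3 had an adjusted p under 0.05 (3 to 76 when a sample was left out) and 1954 an unadjusted p under 0.05 (937 to 2559). The cause of these shifts was not tested. The replicate block gave 3 of the 9 with an unadjusted p under 0.05 and 2 genes with an adjusted p under 0.05. Same-numbered samples deviated with r of 0.058, −0.006 and 0.089, and 4 of 6 samples correlated best with their own number. These values do not settle whether the numbers pair the samples. The main fit took no pairing, and the replicate block is given beside it. At these depths a value of 0.385 to 0.658 FPKM rests on about 3 reads per kilobase, which limits the ligand genes most.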

Other observations

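Within the type I effectors, the levels ran from *Ifitm3*, a membrane protein that blocks virus entry, to genes near the detection limit. *Ifitm3* measured 599, 590 and 831 FPKM on day 10 and 1001, 726 and 1151 FPKM on day 14, well above any of the 9 genes. *Ifi27l2a* measured 13.6, 11.4 and 29.2 FPKM on day 10 and 41.2, 1.98 and 47.2 FPKM on day 14, with the same order of samples as *Ifit1* on day 14 in that replicate 2 was the lowest of all 6. *Cxcl10*, a chemokine of the IFN-γ list, measured 16.0, 10.2 and 49.3 FPKM on day 10 and 89.7, 28.3 and 40.4 FPKM on day 14, with an overlap of the days. These 3 genes were chosen after their values were seen.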
